A study of Mus musculus with 9 samples.

Results

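Nascent transcription in mouse embryonic stem cells after 30 min of Firre induction was compared with the uninduced state of the same cells. The libraries were chosen by the time in their labels: 3 at 30 min and 3 at 0 min, of 9 in the series. Transcription was counted at 174289 bidirectional regions, sites from which RNA polymerase starts both ways, in 600 bp windows on mm10. Of these, 54299 had enough reads to be tested. The assay was PRO-seq, a nuclear run-on that labels the RNA held by engaged polymerase, so the reads report ongoing transcription and not RNA that has accumulated. All groups were embryonic stem cells of the genotype Firre KO / Firre inducible transgene. They were grown on gelatin in serum medium with LIF, the MEK inhibitor PD0325901 and the GSK3 inhibitor CHIR99021. The 0 min group had no doxycycline, and the 15 and 30 min groups had 1 ng/μL for that time. Within the 0 min group, the titles of libraries 1 and 3 hold the word dox and that of library 2 does not. Nuclei were mixed with 1% Drosophila S2 nuclei, whose reads were not used here, so every change is relative to the other mouse regions. No group had doxycycline without the transgene or the transgene in cells with their own Firre, so the drug and the RNA cannot be told apart. The labels do not name separate cultures, and p-values therefore measure the spread between libraries, which may be technical. In bulk nuclei, fewer cells transcribing a region and less transcription per cell cannot be told apart.

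Firre is an X-linked gene for a long non-coding RNA that stays in the nucleus, where it binds chromatin-associated proteins and is known for contacts between its locus and distant genes. Bidirectional transcription marks active promoters and enhancers: at a promoter one polymerase enters the gene and another moves upstream, and at an enhancer both make short unstable RNAs. A change at a region in a gene body or between genes can therefore come from an enhancer, from a promoter not in the annotation or from polymerase of a nearby transcript.

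Promoters of 4 genes with a called region at their start are shown as examples, since regions at gene starts are described further on by the base composition and motifs of their promoters. Id3, Platr22 and Nr0b1 rose at their start, and Smad6 fell, the calls of Nr0b1 and Smad6 being lost in most omissions of 1 library. The sequences are from RefSeq on GRCm38.p6, 300 bases each, with 250 before the start and 50 after it. Id3 lies at chr4:136143572-136143871 (plus strand), Platr22 at chr1:136695961-136696260 (plus strand), Nr0b1 at chrX:86191525-86191824 (plus strand) and Smad6 at chr9:64022010-64022309 (minus strand). Capitals mark matches, on either strand, to any of the 9 motifs listed below with the base composition.
Id3: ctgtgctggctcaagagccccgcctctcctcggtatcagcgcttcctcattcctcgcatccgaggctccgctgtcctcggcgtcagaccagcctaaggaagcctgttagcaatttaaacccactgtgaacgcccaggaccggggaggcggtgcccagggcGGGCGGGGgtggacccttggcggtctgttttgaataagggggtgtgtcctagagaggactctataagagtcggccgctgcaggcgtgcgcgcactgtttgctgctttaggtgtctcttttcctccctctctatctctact
Platr22: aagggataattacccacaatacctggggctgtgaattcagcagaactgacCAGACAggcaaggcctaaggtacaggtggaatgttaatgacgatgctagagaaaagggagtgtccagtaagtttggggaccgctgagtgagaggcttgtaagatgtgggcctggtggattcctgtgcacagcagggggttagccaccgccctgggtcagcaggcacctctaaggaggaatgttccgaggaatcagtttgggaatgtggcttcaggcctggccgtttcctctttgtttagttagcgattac
Nr0b1: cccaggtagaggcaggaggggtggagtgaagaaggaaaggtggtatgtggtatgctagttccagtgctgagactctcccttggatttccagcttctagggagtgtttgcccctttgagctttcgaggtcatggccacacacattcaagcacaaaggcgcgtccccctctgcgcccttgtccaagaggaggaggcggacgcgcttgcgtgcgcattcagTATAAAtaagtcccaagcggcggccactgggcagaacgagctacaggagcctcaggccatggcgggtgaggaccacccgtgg
Smad6: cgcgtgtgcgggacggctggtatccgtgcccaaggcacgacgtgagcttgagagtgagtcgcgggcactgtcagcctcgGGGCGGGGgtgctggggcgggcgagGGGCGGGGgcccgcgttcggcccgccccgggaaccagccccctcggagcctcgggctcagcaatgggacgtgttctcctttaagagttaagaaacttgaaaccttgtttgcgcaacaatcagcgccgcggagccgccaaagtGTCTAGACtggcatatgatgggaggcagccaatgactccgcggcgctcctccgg
The Id3 promoter holds a GC box, GGGCGGGG, and that of Nr0b1 a TATA box, TATAAA. The Platr22 promoter holds only a CAGACA among these motifs. That of Smad6 holds a pair of GC boxes and a GTCTNGAC. GC content was 60.0% for Id3, 52.0% for Platr22, 58.7% for Nr0b1 and 66.3% for Smad6, with 19, 6, 14 and 31 CpG dinucleotides.

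Reads in regions came to 3813365 to 5980366 per library, so 3 counts equal 0.502 to 0.787 CPM (reads scaled to the library's reads in regions, with TMM factors). All windows have the same length. Replicate libraries differed by more than counting error (chi-squared per degree of freedom 2.26 to 3.76), with a fitted coefficient of variation of 15.1%. On the second principal component, 0 min library 2 (-55.1) and 15 min library 3 (85.6) lay apart from the rest. Stem cell markers had a region at a gene end for 6 of 8 genes, with a summed level of 788 to 813 CPM at 0 min and 759 to 833 CPM at 30 min. Pou5f1 and Esrrb had no such region. Fibroblast markers summed to 0.671 to 2.62 CPM and 0.559 to 2.37 CPM (2 of 6 with a region), primitive endoderm to 3.19 to 4.25 and 2.84 to 4.66 CPM (3 of 5), mesoderm to 3.15 to 5.85 and 2.19 to 5.93 CPM (2 of 4), and neuroectoderm to 7.87 to 14.3 and 9.50 to 11.1 CPM (4 of 4). Of the trophectoderm markers only Gata3 had a region, at 0 CPM in all 3 libraries at 0 min and at up to 0.186 CPM at 30 min, and no marker of the two-cell-like state had one.

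The transgene was read over the annotated Firre gene, which lies on the minus strand of the X chromosome. The signal was summed over 8 regions, of which 1 lies at Firre's 3′ end just past the gene. Some of these windows overlap (bidir_167537 with bidir_167538, and bidir_167539 with bidir_167540), so reads may be counted more than once. Of these windows, bidir_167540 had 0 reads in all libraries. The sum was 2.48, 4.92 and 2.62 CPM in the 0 min libraries and 791, 776 and 787 CPM in the 30 min libraries. The induced libraries were within 7.33 CPM (SD) of their mean of 785 CPM, a ratio of 235 to the uninduced mean of this sum. Signal reached past the annotated 3′ end: the region bidir_167533, inside the adjoining lncRNA gene Gm35612 and 7.26 kb beyond Firre's end, went from 5 reads in all at 0 min to 866 at 30 min (ratio 160, exact Poisson interval 68.3 to 494 at the 95% level, counting error only). The regions at the far end of Gm35612 had no such change: bidir_167531 and bidir_167532 had 0 to 2 reads in all, and bidir_167530, outside it, had 13 and 10 reads (ratio 0.711, interval 0.279 to 1.75). Within Firre the region nearest the annotated start, bidir_167542 at 4.38 kb, was the lowest of those tested, with 1 read in all at 0 min and 42, 31 and 27 reads at 30 min. The labels do not say where the transgene is inserted, so reads of the transgene and of the Firre locus are counted together here. By edgeR's quasi-likelihood test with Benjamini-Hochberg adjustment over all regions, 9 regions of Firre and Gm35612 were tested and all were higher. They had 1 to 16 reads in all at 0 min and passed the filter on low counts through the induced libraries, so this count describes the locus and was open to no other outcome. Higher too were all 6 of them left among windows that overlap no other, and 8 by the DESeq2 Wald test, which gave bidir_167542 no adjusted p. All 9 were higher under the other alternatives, each omitted library included.

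Over the whole genome, few regions were called at 30 min, and more were called higher than lower. Of 54299 tested regions, those of Firre included, 945 (1.74%) were called: 675 higher (1.24%) and 270 lower (0.497%) at an adjusted p under 0.05 by the same test, and 279 (0.514%) and 90 (0.166%) of them changed by at least 2-fold. At an unadjusted p under 0.05 by edgeR's quasi-likelihood test, 8.35% were higher and 6.84% lower, so a region without a call is not shown to be unchanged. The CPM of 0 and 30 min did not overlap in 11063 regions (20.4%), which is the level to read such separations against. Counts depended on single libraries: without 0 min library 1, 117 were higher and 54 lower, without library 3 of that time 367 and 108, and without any 1 of the 30 min libraries 210 to 260 and 35 to 78. Without 15 min library 3, which enters only the shared spread and the filter, 991 were higher and 519 lower, and without 0 min library 2, 717 and 410. Regions called in each of these 9 omissions numbered 93 higher (0.171%) and 18 lower (0.0331%), and 29 of the 36 regions that the naming rule took (the smallest p in each position class and direction) were among them.

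Among genes read at their ends, the 6 rises of smallest p were at 3 protein-coding and 3 lncRNA genes. At the start of Id3, an inhibitor of basic helix-loop-helix factors and a BMP target that helps hold stem cells undifferentiated, the region bidir_114680 (4:136143421 to 136144020) had 25.3, 28.9 and 35.1 CPM at 0 min and 57.6, 64.1 and 72.3 CPM at 30 min. Every induced library was above every uninduced one. The naming rule took only regions whose 0 and 30 min CPM did not overlap, so for its regions this separation is no separate result. At this Id3 region the log2 change was 1.13 ± 0.14 (SE), with an adjusted p of 5.43e-05 by edgeR's quasi-likelihood test with Benjamini-Hochberg adjustment, as for all values that follow. Just upstream of Shf, which encodes an SH2 domain adaptor, bidir_90813 (2:122369531 to 122370130) had 26.9, 21.7 and 32.5 CPM and then 72.0, 69.3 and 64.7 CPM. The log2 change was 1.35 ± 0.14 (adjusted p = 2.48e-06). Platr22, a lncRNA gene of the pluripotency-associated transcripts, went from 32.6, 46.8 and 42.5 CPM to 89.3, 75.5 and 91.0 CPM at its start (log2 1.08 ± 0.14, adjusted p = 7.36e-05). Regions 0.78 kb from an end of the lncRNA gene Gm39485 (log2 1.52 ± 0.19, strand not known) and 0.937 kb past the start of Gm52864 (1.60 ± 0.21) also rose. The region 0.996 kb upstream of Elobl, an elongin B-like gene, had by far the highest level of these. It was at 752 to 999 CPM before and 1279 to 1536 CPM after induction (0.60 ± 0.10). All 6 were called in each of the 9 omissions.

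**Figure D1:**
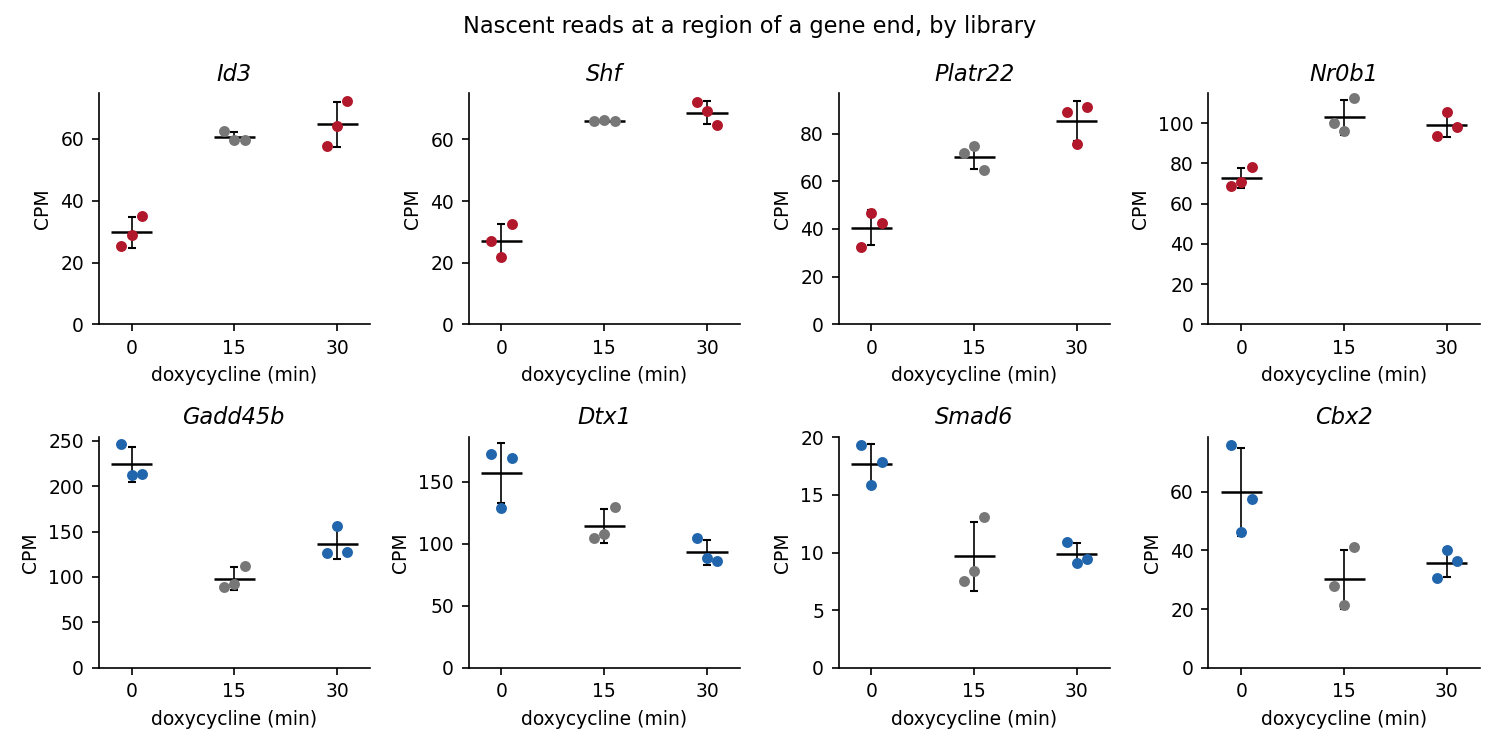
CPM (vertical axis, from 0) of a region at an end of each of 8 genes by minutes of doxycycline (horizontal axis). Points are libraries (red: genes higher at 30 min, blue: genes lower, grey: 15 min), and bars are mean and SD of 3 libraries. The 0 and 30 min points do not overlap in any panel, for example 25.3 to 35.1 CPM against 57.6 to 72.3 CPM for Id3. The panels were picked from called regions, and for Id3, Shf, Platr22, Gadd45b and Dtx1 the naming rule required no overlap. Over all tested regions 20.4% had no overlap.

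Of the 6 falls of smallest p at gene ends, 4 lay at the far end of a gene and not at its start. Gadd45b, a stress-induced gene of growth arrest, had 246, 212 and 213 CPM at bidir_20758 (10:80931434 to 80932033), 471 bp from its 3′ end, at 0 min. It had 126, 156 and 128 CPM at 30 min (log2 -0.71 ± 0.12, adjusted p = 0.00177). At the 3′ end of Dtx1, a ubiquitin ligase of NOTCH signalling, bidir_125296 fell from 172, 129 and 169 CPM to 105, 88.7 and 86.0 CPM (-0.75 ± 0.13, adjusted p = 0.00221). Mmel1, a membrane endopeptidase, fell at its 3′ end from 55.1 to 62.2 CPM down to 25.6 to 31.9 CPM (-1.01 ± 0.14). Zfpm1, a cofactor of GATA factors, fell there too (-0.72 ± 0.13). Atp5d, a subunit of mitochondrial ATP synthase, fell 0.95 kb upstream of its start (-0.99 ± 0.18). The centre of that Atp5d region lies nearer to another annotated start, at 361 bp. Gadd45b, Dtx1, Mmel1, Zfpm1 and Atp5d kept their call in all omissions. The lncRNA gene Gm52551 (-1.09 ± 0.20) lost it without 0 min library 1, where the adjusted p was 0.0533.

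Inside genes, the rises of smallest p included regions of low level before induction. Whether these regions lie in exons or introns was not analysed here. In Fads3, of the fatty acid desaturase family, bidir_79313 (19:10051669 to 10052268), 11.1 kb past the start, had 3.01, 5.37 and 6.29 CPM at 0 min and 24.0, 25.7 and 30.1 CPM at 30 min. The log2 change was 2.48 ± 0.23 (adjusted p = 3.62e-07). In Apod, for apolipoprotein D, a region rose from 3.01, 3.36 and 4.98 CPM to 23.3, 23.1 and 17.5 CPM (2.53 ± 0.25). In Dclk2, a doublecortin-like kinase, the region was already at 125 to 165 CPM and reached 253 to 258 CPM (0.79 ± 0.10). Armc2 (2.28 ± 0.25), Svopl (1.50 ± 0.18) and Dupd1 (1.63 ± 0.23) completed the 6 highest by p. Of the falls inside genes, Tmem151b went from 26.9 to 38.4 CPM down to 9.84 to 16.1 CPM (-1.37 ± 0.20), and Lag3, an inhibitory receptor of T cells, from 12.3 to 17.5 CPM down to 4.27 to 6.15 CPM (-1.44 ± 0.24). Chid1 (-0.79 ± 0.12), Hapln4 (-1.11 ± 0.18), Napsa (-1.02 ± 0.17) and Gm11725 (-1.06 ± 0.18) fell as well, and all 12 were called in each omission.

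Outside genes, 372 regions rose and 37 fell. The one of smallest p, bidir_6874 (1:90628040 to 90628639), lies 15.0 kb from Cops8, a subunit of the COP9 signalosome. Its mean over the 3 libraries went from 27.6 CPM (SD 2.38) to 69.3 CPM (SD 3.84) (log2 1.33 ± 0.13, adjusted p = 8.37e-07). A region 3.76 kb upstream of Bcat1, the cytosolic branched-chain aminotransferase, rose from 21.1, 22.6 and 21.2 CPM to 52.3, 49.8 and 56.7 CPM (1.29 ± 0.14). Regions near Zfp979 (1.53 ± 0.18), Arih1 (1.98 ± 0.24) and Rps20 (1.05 ± 0.12) and a further one upstream of Shf (1.47 ± 0.18) were also among the 6 of smallest p, and all 6 were called in each omission. The distance to a gene gives no link to its transcription. The 6 falls of smallest p had as their nearest gene Sox1ot (-0.80 ± 0.15), Mavs (-0.56 ± 0.11), Pipox (-0.84 ± 0.17), Vmn1r2 (114 kb away, -0.63 ± 0.13), Sec14l1 (-0.85 ± 0.18) and 2810030D12Rik (-0.76 ± 0.16). Each of them lost its call without 1 to 3 of the libraries, with adjusted p up to 0.122, and that of Vmn1r2 also with scaling from gene ends. Those libraries were 0 min library 1 (all but Mavs), 30 min library 3 (all 6), 30 min library 1 (Vmn1r2, Sec14l1 and 2810030D12Rik) and 30 min library 2 (Pipox).

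Called regions were also looked for side by side, by joining tested regions at most 10 kb apart; the neighbourhoods below were picked because they held at least 3 calls, so their calls are a description. Of 6766 neighbourhoods of 3 or more regions, 14 besides Firre held at least 3 higher calls, 4 held at least 3 lower calls, and 0 held 3 of both kinds. At Id3, all 3 regions over 4.77 kb rose. The region at its 3′ end, bidir_114681, also lies within 1 kb of its start. It went from 16.5, 30.0 and 31.2 CPM to 58.1, 54.2 and 67.6 CPM (1.23 ± 0.18). The third region, 2.50 kb past the gene, went from 12.0, 13.2 and 18.4 CPM to 31.9, 20.9 and 27.5 CPM (0.90 ± 0.20), without overlap. At Bcat1, 4 of 7 regions rose over 25.7 kb, and all 7 estimates were above 0. Its promoter region went from 112, 130 and 138 CPM to 174, 190 and 201 CPM (0.57 ± 0.11), a smaller estimate than at the region 3.76 kb upstream. In Cdh3, the gene of P-cadherin, the start region had 25.4 to 28.0 CPM and then 29.9 to 41.9 CPM (0.41 ± 0.16, adjusted p = 0.221), while 4 regions inside the gene rose by 1.07 to 1.22. Groups of rising regions also lay outside genes near Purg (4 of 6), Nlrp12 (3 of 6) and Scn3a (3 of 8). Between Ranbp17 and Gabrp 4 of 8 rose, among them bidir_26671, from 513 to 596 CPM up to 661 to 699 CPM.

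The falling neighbourhoods included a repressor gene and the surroundings of a cytokine feedback gene. At Bhlhe40, which encodes a helix-loop-helix repressor, and the adjoining 0610040F04Rik all 7 regions had estimates below 0, from -0.50 to -1.43, and 3 fell. A region at an end of Bhlhe40, bidir_134919, had 29.8, 10.3 and 13.9 CPM at 0 min and 7.11, 7.64 and 5.45 CPM at 30 min (-1.43 ± 0.29, adjusted p = 0.0102). Its 0 min library 1 was more than 2-fold above the other two, and without that library the adjusted p was 0.209. Between Gm11725 and Socs3, the inhibitor of JAK-STAT signalling that LIF induces, 15 of 16 regions were below 0 and 4 fell, the highest of which, bidir_33565, went from 49.1, 34.9 and 32.8 CPM to 18.9, 23.9 and 24.2 CPM (-0.81 ± 0.18). At Adam15, a metalloprotease gene, the start fell from 40.4, 36.9 and 35.4 CPM to 21.9, 23.3 and 21.8 CPM (-0.75 ± 0.17), and so did its 3′ end (-0.60 ± 0.14). The called regions at Bhlhe40, from Gm11725 to Socs3 and at Adam15 lost their call without 2 to 6 of the libraries, with adjusted p up to 0.301. Most of these losses came without 0 min library 1 or a 30 min library. Rising regions that lost their call in an omission were the third at Id3 (adjusted p up to 0.147), the start of Bcat1 (0.0554, without 0 min library 1), the region 14.4 kb upstream of it (up to 0.185), 3 of the 4 in Cdh3 (up to 0.293), 2 of the 4 near Purg (up to 0.0809), all 4 from Ranbp17 to Gabrp (up to 0.176) and 1 of 3 near Scn3a. The 3 near Nlrp12 kept theirs.

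**Figure D2:**
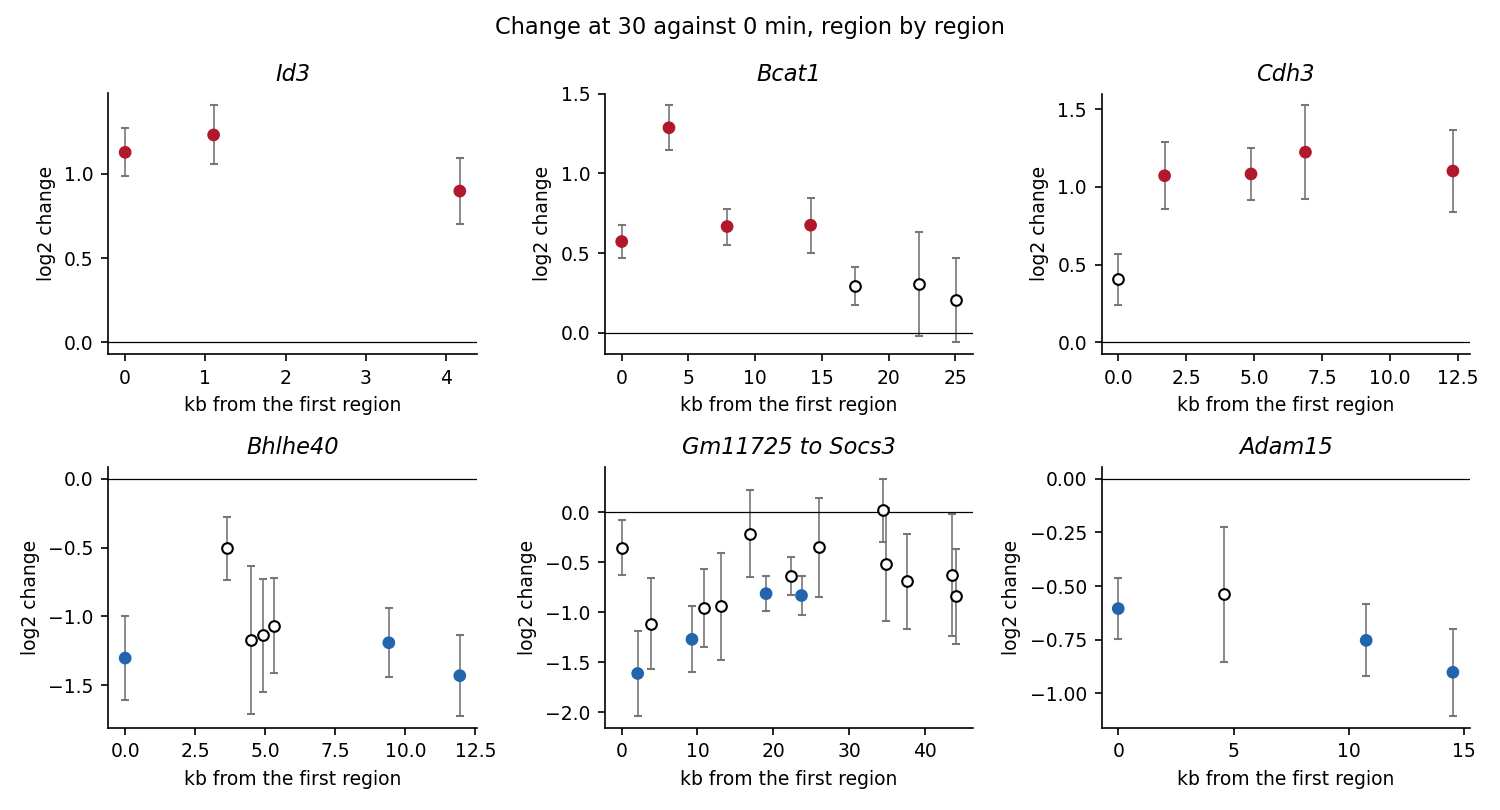
Log2 change at 30 against 0 min with its SE (vertical axis) for each tested region, by its distance in kb from the first region of the neighbourhood (horizontal axis). Filled points passed the test (red higher, blue lower) and open points did not. All 3 regions at Id3 are filled, and 15 of the 16 points between Gm11725 and Socs3 lie below 0.

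Read by known gene groups, few genes passed the test at 30 min. The 37 lists other than Firre's own held 379 measured genes, of which 5 rose and 5 fell, in 8 lists. Over all 13691 genes with a tested end region, 69 were higher (0.504%) and 124 lower (0.906%), and the median log2 change was -0.11, with 32.6% of genes above 0. None of 7 core pluripotency genes passed the test. Nanog had a log2 change of -0.02 ± 0.10, Sox2 of 0.04 ± 0.10 and Utf1 of 0.14 ± 0.10. Of 12 naive pluripotency genes Nr0b1 rose, an orphan receptor gene of the stem cell network, from 68.9, 70.5 and 78.1 CPM to 93.5, 105 and 97.9 CPM without overlap (0.45 ± 0.12, adjusted p = 0.0406).

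Of 10 BMP targets, Id3 rose and Smad6, an inhibitory Smad, fell, from 19.3, 15.9 and 17.8 CPM to 10.9, 9.13 and 9.48 CPM at its start (-0.84 ± 0.22, adjusted p = 0.0445). The related Smad7 had 0.19 ± 0.13. Of 8 nuclear lncRNA genes, Neat1, the scaffold of paraspeckles, rose from 391, 396 and 397 CPM to 498, 488 and 508 CPM. This was a small and even step, 0.33 ± 0.09 (adjusted p = 0.0456). Lncenc1, a lncRNA of naive stem cells, rose too (0.60 ± 0.15, adjusted p = 0.0338), while Malat1 had 0.25 ± 0.15. Of 17 Polycomb factors Cbx2 fell, from 75.8, 46.1 and 57.4 CPM to 30.6, 40.3 and 36.5 CPM (-0.75 ± 0.19, adjusted p = 0.0383), and its neighbour Cbx8 had -0.75 ± 0.30 (adjusted p = 0.221). Of 24 cytosolic ribosomal protein genes, 19 had estimates above 0, with a median of 0.09.

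Of 15 genes of the integrated stress response, the programme of ATF4, Gdf15 fell at a region 0.537 kb from its 3′ end (-0.55 ± 0.13, adjusted p = 0.0312). Of the 15, 2 were above 0 (median -0.33). Nupr1 had -0.90 ± 0.28, Chac1 -0.60 ± 0.21 and Trib3 -0.40 ± 0.14, and none of these passed. Of 6 NOTCH targets Dtx1 fell, at its 3′ end as described above, and none was above 0 (median -0.46). Of 15 hypoxia and glycolysis genes none passed and none was above 0 (median -0.25, range -0.47 to -0.05). Of 12 replication-dependent histone genes none passed, and 1 was above 0 (median -0.22). The median over all genes read in this way was itself -0.11, with 32.6% of genes above 0. Immediate early genes (0 of 14), FGF-ERK feedback genes (0 of 11), LIF-STAT3 targets (0 of 7), heat shock genes (0 of 11) and polymerase II pausing and elongation factors (0 of 23) had no call.

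In the fit over all 9 libraries, no gene near Firre or reported to touch its locus was called. These lists held 8 and 3 genes, where the shares over all genes (0.504% higher and 0.906% lower) would give few or none. Of 8 genes flanking Firre on the X chromosome, Gpc4 had 14.5, 23.5 and 15.5 CPM at 0 min and 16.4, 23.5 and 26.1 CPM at 30 min (0.30 ± 0.20). Hprt, the purine salvage enzyme gene, had 10.3, 5.60 and 6.03 CPM and then 4.55, 3.73 and 5.21 CPM (-0.73 ± 0.30, adjusted p = 0.229). Of 3 measured contact genes Slc25a12, a mitochondrial aspartate-glutamate carrier, came closest, at 28.7, 19.5 and 29.6 CPM and then 34.8, 44.2 and 36.5 CPM (0.57 ± 0.17, adjusted p = 0.0844). With scaling from gene ends (log2 0.68) and without 15 min library 3, Slc25a12 was called higher. The other two, Eef1a1 and Ppp1r10, had -0.06 ± 0.10 (0.04 with scaling from gene ends) and 0.22 ± 0.10. None of 15 Firre partners and nuclear architecture genes passed (lowest Sun2, -0.70 ± 0.24). Within 1 Mb of Firre, 0 of 11 tested regions outside Firre and Gm35612 were called, and from 1 to 5 Mb 2 of 122. On the X chromosome, 20 of 1989 other regions were higher and 0 lower. These counts stand beside 1.24% higher and 0.497% lower over all regions, and nothing particular to the X chromosome is read from them. By DESeq2's Wald test 0 were lower too, and at an unadjusted p under 0.05 in edgeR's quasi-likelihood test 64 were (over all regions 6.84%).

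Of the called list members, Id3, Gadd45b and Dtx1 held in all omissions. Nr0b1, Gdf15, Smad6, Lncenc1, Neat1 and Cbx2 each lost the call without 0 min library 1 and without each of the 30 min libraries. These 6 except Gdf15 lost it without 0 min library 3, and Nr0b1, Gdf15 and Neat1 without 0 min library 2. Nr0b1 also lost it without 15 min library 1. Their highest adjusted p in an omission lay between 0.168 (Neat1) and 0.291 (Cbx2). With scaling from gene ends Gdf15 and Smad6 lost the call, with DESeq2 size factors Neat1, with no filter Nr0b1 and Neat1, and with the DESeq2 Wald test Neat1.

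The share of calls and the median change varied with the distance from gene ends, though not evenly. Within 250 bp of a gene end 0.273% of regions were higher and 0.732% lower. The lower share was highest at 1 to 2 kb, with 0.968% lower and 1.07% higher. The higher share was highest at 10 to 20 kb, where 1.86% were higher and 0.227% lower. At 50 to 100 kb 1.33% were higher and 0.0334% lower, and beyond 100 kb 0.989% and 0.0618%. The median log2 change was -0.11 within 250 bp, lowest between 250 bp and 1 kb (-0.14), and 0.15 beyond 100 kb. By class, gene ends held 74 higher and 117 lower of 15009, gene bodies 229 and 116 of 20078, and regions outside genes 372 and 37 of 19212. Among regions outside genes with a known strand, 2.16% of those past a gene's 3′ end and 1.69% of those before its start were higher. With scaling factors from gene ends alone, all log2 changes moved up by about 0.11 (median of all regions), and the calls became 1131 higher and 140 lower, 89.0% higher in place of 71.4%. Gene ends then held 128 higher and 59 lower calls, so that the sign of the balance there rests on the scaling. A scaling factor moves all classes alike and leaves the difference between them.

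**Figure D3:**
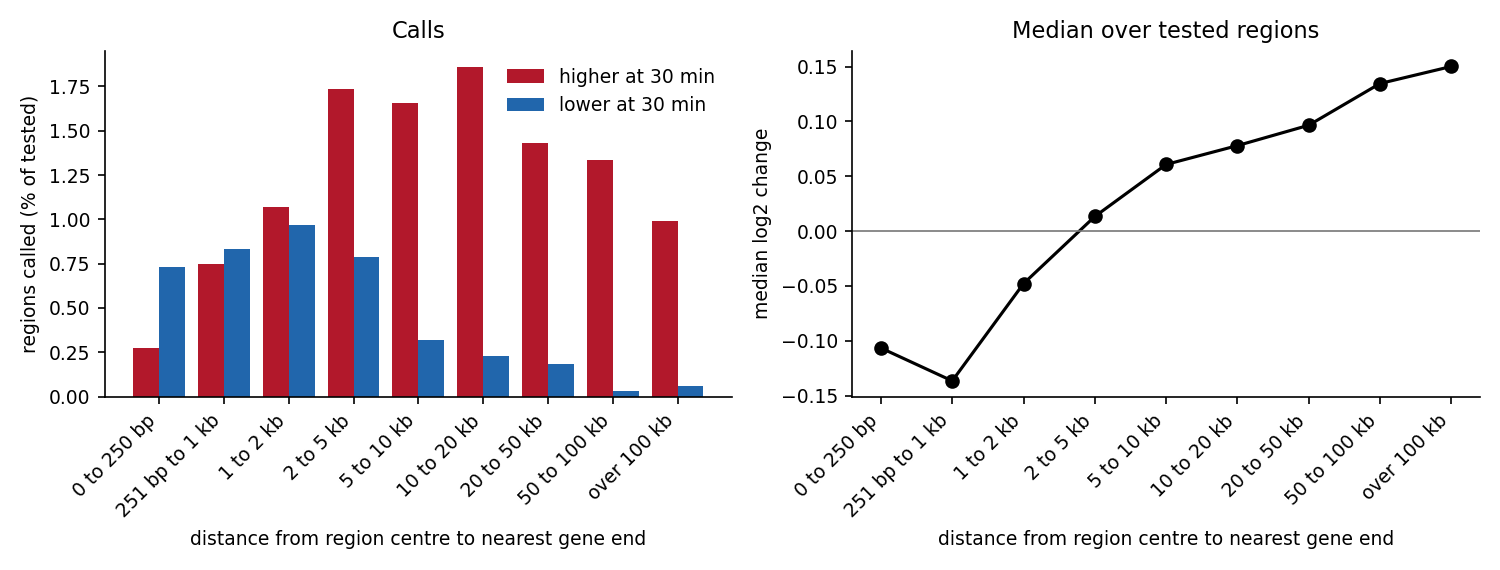
Left, the share of tested regions called higher (red) or lower (blue) at 30 against 0 min, in percent, by distance of the region's centre to the nearest annotated gene end. Right, the median log2 change of all tested regions in the same bins. Lower calls are at 0.732% within 250 bp, highest at 1 to 2 kb (0.968%) and at 0.0618% beyond 100 kb, and the median is lowest between 250 bp and 1 kb (-0.14) and 0.15 beyond 100 kb.

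That balance between places varied from library to library within a time. As the median log2(CPM + 1) of regions outside genes less that at gene starts, each library set against the mean of all 9, it was -0.30, -0.05 and -0.19 in the 0 min libraries and 0.09, 0.01 and 0.03 in the 30 min libraries. The groups did not overlap, but 0 min library 2 lay closer to the 30 min libraries than to 0 min library 1. At 15 min it was 0.19, 0.33 and -0.06, so library 3 of that time lay among the uninduced ones. Without 0 min library 1, gene ends held 11 higher and 16 lower calls, and without 0 min library 2, 85 and 234. The part of this library spread in the calls was not tested.

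At gene starts the change also followed base composition. Among 11663 regions within 1 kb of a RefSeq start with a promoter sequence, the median log2 change was -0.04, -0.11, -0.15 and -0.22 from the lowest to the highest quartile of GC content. The higher calls numbered 25, 10, 3 and 2 in these quartiles and the lower calls 11, 17, 33 and 23. The median GC content was 51.2% for the 40 higher regions, 65.3% for the 84 lower ones and 61.7% for all, with 7, 20 and 21 CpG. Promoters were searched on both strands for 9 motifs, none of which contains another. The TATA box, TATAAA, was in 8 of 40 higher promoters (20.0%) and in 3 of 84 lower ones (3.57%), beside 6.61% of tested starts and 13.6% of all 32851 promoters. The GC box, GGGCGGGG, was in 4 of 40 (10.0%) and 45 of 84 (53.6%), beside 34.6% of tested starts and 17.6% of all promoters. The remaining motifs were nearer to their share of tested starts. The SMAD element CAGACA was in 8 and 15 of these promoters (15.6% of tested starts, 21.0% of all), and the BMP-SMAD element GGCGCC in 6 and 16 (22.9% and 11.9%). The E-box CACGTG was in 2 and 7 (10.2% and 7.15%), and the AP-1 site TGANTCA in 3 and 3 (4.32% and 7.81%). The STAT site TTCNNNGAA was in 2 and 3 (6.31% and 8.30%), the palindromic SMAD site GTCTNGAC in 2 and 2 (2.06% and 1.84%), and the CRE site TGACGTCA in 0 and 2 (3.04% and 1.79%). A match says only that these letters are present.

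The libraries differed in the same measure. The median at starts of the highest GC quartile less that of the lowest was 0.26, -0.04 and 0.17 in the 0 min libraries, -0.20, -0.24 and 0.16 at 15 min, and -0.10, 0.01 and -0.01 at 30 min. The 0 and 30 min groups overlapped here, since 0 min library 2 lay between the 30 min libraries. The part of this library spread in the calls at gene starts was not tested.

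**Figure D4:**
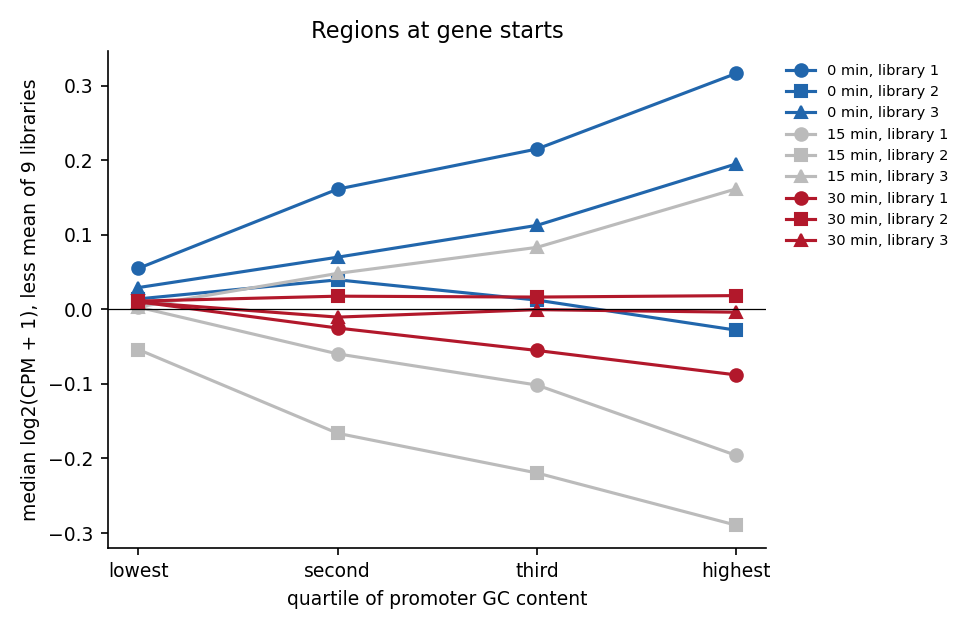
Median log2(CPM + 1) of regions at gene starts, less the mean of the 9 libraries (vertical axis), by quartile of promoter GC content (horizontal axis), 1 line per library, coloured by time (blue 0 min, grey 15 min, red 30 min). In the highest quartile 0 min library 1 is at 0.32 and 0 min library 2 at -0.03, inside the 30 min range of -0.09 to 0.02.

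Broad regions held a large share of the rises. Regions whose deposited call was over 1600 bp wide made up 11.5% of those tested and 46.4% of the higher calls: 313 of 6255 were higher (5.00%) and 95 lower (1.52%), beside 0.268% and 0.189% of regions of 201 to 400 bp. Counts were taken in equal windows, and the comparison was repeated within the top quintile of mean level. There 8.35% of the widest regions were higher, beside 0.660% of those of 401 to 800 bp, while of the few up to 200 bp wide 9 of 143 (6.29%) were. Of wide regions outside genes 7.99% were higher and 0.588% lower. By chromosome, the share of higher calls was highest on chromosome 6 (65 of 2911, 2.23%), and the share of lower calls on chromosome 11 (47 of 3968, 1.18%), as a description of these counts with no test.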

How the data were processed

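PRO-seq libraries of 0, 15 and 30 min (3 each) were used. The deposited table holds raw read counts per region, and both deposited region lists hold other values, namely where each region starts and ends on mm10. Per the submitters' processing notes the tools were HISAT2, featureCounts and DESeq2 1.26.0; settings and the strand counted are not given in the sources used here, so overlapping and antisense transcripts cannot be told apart. The file titles name Tfit and muMerge. Of 174289 windows 50841 (29.2%) overlapped another, so neighbours may share reads. How reads in an overlap were counted is not given in the sources used here.

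Counts were analysed with edgeR 4.0.16 in R 4.3.3. Its default expression filter removed 119990 regions, library size was all reads in regions, TMM factors were 0.971 to 1.02, and 1 quasi-likelihood fit over all 9 libraries took the 3 times as levels (common dispersion 0.0228). The contrast was 30 minus 0 min, with Benjamini-Hochberg adjustment over 54299 regions at 0.05. The SE is the log2 change divided by the square root of F. For data simulated for 30 against 0 min (53693 regions), changed regions were drawn from those with a mean of at least 20 counts. Every region had a dispersion of 0.0228, and libraries differed only in size. The test called 66% of 50 regions raised 2-fold and 100% of those raised 4-fold. It called 56% of those lowered to 0.5 and 100% of those lowered to 0.25, with 6 false calls. Recovery at lower counts or with other library differences was not tested.

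Names came from RefSeq on GRCm38.p6, the assembly of mm10 (strand known for 27025 of 35099 genes). A gene end was a region centre within 1 kb of an annotated end. A gene was read at its end region of highest mean count. The rule for named regions took all regions of Firre and Gm35612, in each position class the 6 higher and 6 lower of smallest p (mean of at least 20 counts, no overlap in CPM, a gene counted once), the called list members, and the flanking and contact genes. Neighbourhoods were picked from their calls. Some called items are not reported here. The members and gene lists were chosen with earlier results of these data known. Of 528 list genes 381 were measured. Chromosome 17 held 1128 regions. Alternatives were other scalings (DESeq2 1.42.0 size factors, library size, gene-end TMM), no filter or 20 counts in 3 libraries, 6 libraries, a replicate block, non-overlapping windows, the DESeq2 Wald test, 500 bp for gene ends, sums over a gene's end regions and leaving out each library.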

Additional observations from a re-analysis of the deposited data

Results flagged for a closer look

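Of the 43 named regions that were called, 5 also differed between 30 and 15 min by edgeR's quasi-likelihood test with Benjamini-Hochberg adjustment, beside 382 of all tested regions (0.704%). The region of Gm52864 was higher at 30 min by 0.83 on the log2 scale (adjusted p = 0.0354). The regions in Dupd1 (-1.54, adjusted p = 3.54e-05), near Rps20 (-0.78, 0.000415), 114 kb from Vmn1r2, its nearest gene (-0.63, 0.0155), and near Sec14l1 (-0.97, 0.00391) were lower than at 15 min. In Dupd1 and near Rps20 the 30 min level (22.5 and 265 CPM) lay between that of 0 min (7.51 and 128 CPM) and that of 15 min (65.3 and 456 CPM). In the regions named for Vmn1r2 and Sec14l1 the 15 min levels (108 and 25.6 CPM) were close to those at 0 min (108 and 23.5 CPM). Groups of 3 libraries were too small for a test of outliers.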

How the results depend on the processing

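With scaling factors from gene ends alone there were 1131 higher and 140 lower regions, of which 604 higher lay outside genes and 128 higher and 59 lower at gene ends. With no filter on low counts 470 were lower (246 at gene ends), and with only the 6 libraries of 0 and 30 min 456 were lower (236 at gene ends). With 500 bp for gene ends 36 higher calls lay there. Of gene list members, 3 were higher with DESeq2 size factors, 2 with no filter, 3 with 500 bp and 1 when a gene's end regions were summed. The lower ones numbered 3 with gene-end factors, 10 with no filter and 3 when summed. The other scalings, filters and tests kept these counts within 1.5 times. Leaving out each library in turn gave 117 to 991 higher and 35 to 519 lower regions, 65 to 534 higher outside genes, 11 to 112 higher and 12 to 274 lower at gene ends, and 1 to 6 higher and 2 to 9 lower list members. Replicate numbers did not pair the libraries: deviations of same-numbered 0 and 30 min libraries correlated at -0.0015, -0.034 and 0.025, and the replicate block gave 785 higher and 322 lower regions. The regions of Firre and Gm35612 were higher wherever tested with an adjusted p (9, but 6 among windows that overlap no other and 8 by the DESeq2 Wald test). No called named region changed sign. With gene-end factors Eef1a1 (0.04) and Enox2 (0.04), neither of them called, were above 0, and higher calls outnumbered lower ones at gene ends. Slc25a12, not called in the fit over all 9 libraries, was called higher with gene-end factors (0.68) and without 15 min library 3. At 3 libraries a time and this depth, 2-fold changes were missed in part in the simulation.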
